A study of Homo sapiens with 10 samples.

Results

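The genes described here were SNHG1, SNHG10, DANCR and RPL32P3, 4 noncoding snoRNA host genes (ncSNHGs) for which the study designed qRT-PCR primers to both the spliced and the unspliced RNA. They were taken by symbol from the deposited expression table, where they filled 5 of 30809 assembled rows, because RPL32P3 had a second row. SNHG8 and SNHG9 also have unspliced primers and a row of their own, but were not among the 4 genes chosen and are given beside them. SNHG3, SNHG4, SNHG19, SNHG20 and SNHG21 have unspliced primers as well, but no row under their own symbol. The series holds 10 libraries of polyadenylated RNA from HEK293, a human embryonic kidney cell line, with 2 libraries in each of 5 groups. The siPAP groups (siPAP nuclear and siPAP total) came from cells treated for 3 days with siRNAs against PAPα and PAPγ, the canonical poly(A) polymerases. The LALA nuclear group came from a stable line that carried a myc-tagged dominant negative allele of PABPN1, a poly(A)-binding protein of the nucleus, under a tetracycline-responsive promoter, induced for 3 days by removing doxycycline. Control nuclear and control total were the matching groups without either treatment, and the nuclear groups are nuclear-enriched RNA from a detergent-insoluble fraction. The study says this fraction favours RNA bound to chromatin and nuclear speckles and lacks some soluble nuclear material. The study's texts differ on whether control cells received an siRNA or were the untreated parental line. In the LALA comparison the allele, the integrated line and any transfection therefore cannot be told apart. If the controls received no siRNA, depletion of the polymerases and siRNA transfection itself cannot be told apart in the siPAP comparisons.

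In human cells a snoRNA usually matures from an intron that splicing releases from a longer host transcript. That host RNA is spliced, capped and polyadenylated like an mRNA, and in an ncSNHG the exons that remain encode no known protein. Box C/D snoRNAs guide ribose methylation and box H/ACA snoRNAs guide pseudouridylation of other RNAs, mainly rRNA, while scaRNAs are their counterparts in Cajal bodies and act on spliceosomal RNAs. PABPN1 binds poly(A) tails in the nucleus and stimulates poly(A) polymerase, and the study asked which polyadenylated nuclear RNAs accumulate when that extension of the tail, which is linked to nuclear decay, is blocked.

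The primers are shown because they mark which parts of each host RNA count as spliced and unspliced in the study's qRT-PCR. The levels given further below are means per assembled gene and do not separate these forms. All 16 were placed on the hg19 genome, 15 as a single exact match in or near the host locus and 1 across a splice junction. Lower case marks exon bases and capitals mark intron bases, where an exon base lies in an exon in most of the GENCODE transcripts that span it and can yield the spliced product.
SNHG1 spliced forward: tactgctcgtggatttacgc
SNHG1 spliced reverse: ggctttgcataaagatgggt
SNHG1 unspliced forward: gttccaacgtgcgcgtaaat
SNHG1 unspliced reverse: AGCGTTTTCGAAATGCCCTG
SNHG10 spliced forward: ggttattgacttcctacccagca
SNHG10 spliced reverse: tcatgttgcttgttcctctga
SNHG10 unspliced forward: tggttattgacttcctacccagc
SNHG10 unspliced reverse: CAAGTCCACTGGTCCTGCTC
DANCR spliced forward: cgtctcttacgtctgcggaa
DANCR spliced reverse: tggcttgtgcctgtagttgt
DANCR unspliced forward: cctcagttcttagcgcagGT
DANCR unspliced reverse: TGCTCCAGGCTGACTCATTC
RPL32P3 spliced forward: attcatccggcaccagtcag
RPL32P3 spliced reverse: tataaagagcgctgggccac
RPL32P3 unspliced forward: TGGAGCTTCCCTGGTAGGAA
RPL32P3 unspliced reverse: TAAAGGCTGCTTTCTGCCCA

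In SNHG1, on the minus strand of chromosome 11, the spliced forward primer lies across a splice junction, with 11 bases before it and 9 after it. The spliced pair spans 722 bases of genome (chr11:62622626-62623347) and 109 to 117 bases of spliced RNA. The unspliced pair covers 77 bases (chr11:62622918-62622994), of which 56 lie in an intron of 398 bases (chr11:62622939-62623336), so that it crosses the end of that intron. This pair is written in the opposite orientation, with its forward primer antisense to the host. The SNHG1 row of the table also carries the names of the box C/D snoRNAs SNORD22, SNORD28, SNORD29, SNORD30 and SNORD31, and its assembled locus is chr11:62619460-62623400.

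In SNHG10, on the minus strand of chromosome 14, the intron between the spliced primers holds SCARNA13, a scaRNA of 275 bases (chr14:95999692-95999966). The spliced product is 118 bases long once the intron of 631 bases (chr14:95999399-96000029) has been removed. The forward primers of both pairs are the same site shifted by a base, and the unspliced product of 135 bases reaches 57 bases into the intron without touching SCARNA13. The intron is removed in 3 of the 5 annotated transcripts that match the spliced pair and kept in the other 2, which would give the unspliced product.

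In DANCR, on the plus strand of chromosome 4 and called SNHG13 in the primer list, the intron between the spliced primers holds SNORA26, a box H/ACA snoRNA of 122 bases (chr4:53579416-53579537). The intron is 534 bases long (chr4:53579127-53579660) and the spliced product is 71 bases once it has been removed. The intron is removed in 7 of the 8 annotated transcripts that match the spliced pair. It is kept in 1, which would give the unspliced product. The unspliced forward primer ends with the first 2 intron bases, the GT of the donor site, so that 53 of the 71 bases of the unspliced product are intronic.

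RPL32P3, on the minus strand of chromosome 3, differs from the other genes in its layout. Both unspliced primers lie inside an intron, in a stretch of 133 bases (chr3:129108037-129108169) with no exon base of the host. It is not the intron that the spliced pair bridges. In GENCODE a pseudogene on the opposite strand, IFT122P2 (chr3:129100141-129112992), overlaps this stretch, and its part in the RPL32P3 row was not tested. The spliced pair joins exons across 3244 bases of intron and gives 122 bases in the shortest annotated transcript. SNORA7B, a box H/ACA snoRNA of 139 bases (chr3:129116053-129116191), sits in an intron of 1867 bases upstream of both pairs. In GENCODE the symbol RPL32P3 covers only a pseudogene copy of the ribosomal protein gene RPL32 (chr3:129115061-129115952), and the multi-exon RNA that holds the primers is an unnamed lncRNA, ENSG00000290993 (chr3:129101765-129118498).

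**Figure D1:**
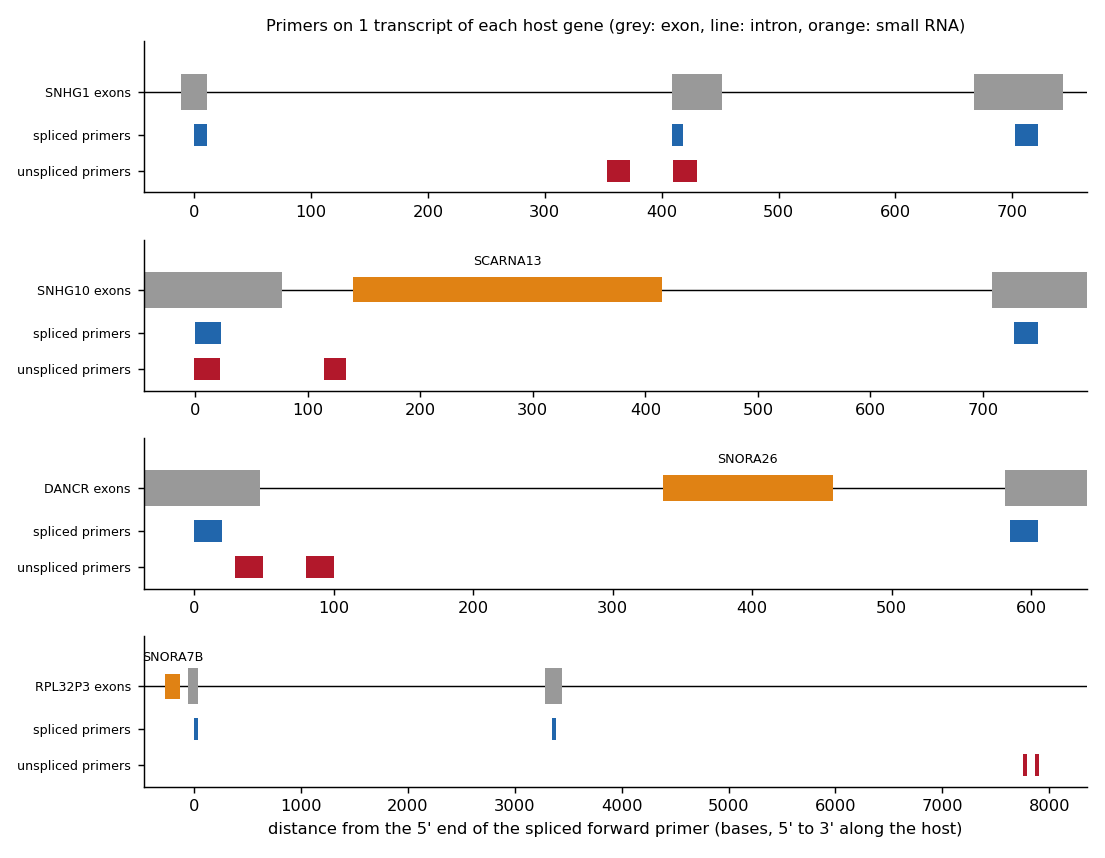
Position of the spliced (blue) and unspliced (red) primers on 1 annotated transcript of each host gene. The x axis gives the distance in bases from the 5′ end of the spliced forward primer, 5′ to 3′ along the host, on a scale of its own for each gene. Grey boxes are exons, lines are introns and orange boxes are small RNAs annotated in GENCODE, which does not place those of SNHG1. The unspliced pair crosses an exon-intron border in SNHG1, SNHG10 and DANCR and lies wholly inside an intron in RPL32P3.

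Levels are given in FPKM (fragments scaled to transcript length and library size), as the mean that the authors deposited for each group. The table holds no value of a single library, so no SD, confidence interval or test goes with any level or ratio below, and a difference between means cannot be set against the spread between replicates. Read numbers were not given in the sources used here and the depth behind each mean is unknown. The sum of FPKM over all rows was 985903 to 1599680 among the groups, of which 24 rows above 10000 FPKM in some group, small RNAs and unnamed loci among them, made up 39.8% to 64.4%. PAPOLA, which encodes PAPα, was at 11.0 FPKM in siPAP total and 79.3 FPKM in control total, and at 11.2 FPKM in siPAP nuclear and 61.7 FPKM in control nuclear. PAPOLG, which encodes PAPγ, was at 3.64 FPKM in siPAP total and 12.2 FPKM in control total. PABPN1 shares a row with BCL2L2, and that row was at 162 FPKM in LALA nuclear and 89.1 FPKM in control nuclear. Of 6 markers known in HEK293, VIM, KRT8 and KRT18 were above 150 FPKM and NEFL was between 9.25 and 19.3 FPKM in every group, while PAX2 and NEFM were below 0.5 FPKM in every group. Of 4 markers of other cell types, PTPRC, PECAM1 and ALB were below 0.1 FPKM and COL1A1 was at 1.51 to 1.94 FPKM.

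SNHG1, the host of a series of box C/D snoRNAs, was the most abundant of the 4 genes. Its mean was 444 FPKM in LALA nuclear, 571 FPKM in siPAP nuclear and 264 FPKM in control nuclear. In total RNA it was 373 FPKM in siPAP cells and 197 FPKM in control cells. Both treated nuclear means lay above the control nuclear mean, and siPAP nuclear was the highest of the 5 groups.

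DANCR, a lncRNA named for holding back differentiation of progenitor cells, came next in level. Its mean was 64.0 FPKM in LALA nuclear, 60.5 FPKM in siPAP nuclear and 26.6 FPKM in control nuclear. In total RNA it was 53.0 FPKM in siPAP cells and 31.0 FPKM in control cells. DANCR was the only gene of the 4 whose highest mean was in LALA nuclear, and the only gene with a lower deposited mean in control nuclear than in control total.

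RPL32P3 had a mean of 27.3 FPKM in LALA nuclear, 29.5 FPKM in siPAP nuclear and 13.1 FPKM in control nuclear. In total RNA it was 24.1 FPKM in siPAP cells and 10.6 FPKM in control cells. Its second row, assembled in the same locus (chr3:129085591-129118515), was between 0.204 and 0.520 FPKM in the 5 groups and did not reach the minimum of 1 FPKM used for ratios. Reads of RPL32 and its pseudogene copy could be shared between them, and the way the authors divided such reads was not stated in the methods. The row of RPL32, which encodes a protein of the large ribosomal subunit, had lower means in treated than in control groups, with 164 FPKM in siPAP total and 189 FPKM in control total. In the nuclear groups it had 81.4 FPKM in LALA nuclear, 97.3 FPKM in siPAP nuclear and 120 FPKM in control nuclear.

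SNHG10, the host of SCARNA13, was the least abundant. Its mean was 15.5 FPKM in LALA nuclear, 17.8 FPKM in siPAP nuclear and 5.02 FPKM in control nuclear. In total RNA it was 9.65 FPKM in siPAP cells and 4.36 FPKM in control cells. Among rows with at least 1 FPKM in the group, 25.3% were below SNHG10 in control nuclear, and this share was 60.2% in LALA nuclear and 61.1% in siPAP nuclear. SNHG1 lay above at least 96.5% of such rows in every group.

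**Figure D2:**
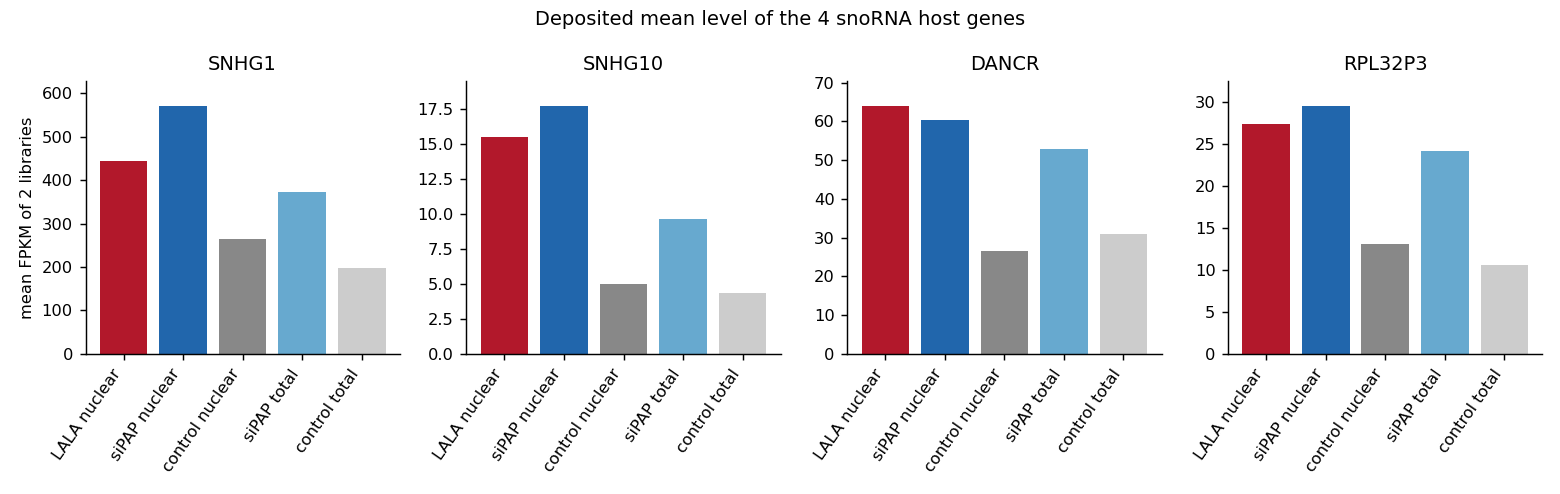
Deposited mean FPKM of SNHG1, SNHG10, DANCR and RPL32P3 in the 5 groups, each bar the mean of 2 libraries, with axes that start at 0 and differ between genes. There are no error bars because values of single libraries are not in the table. In each gene the LALA nuclear and siPAP nuclear bars are taller than the control nuclear bar, and the siPAP total bar is taller than the control total bar.

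The first comparison sets total RNA of siPAP cells against total RNA of control cells. All 4 genes had a higher mean in siPAP total than in control total by 1.5-fold or more, the limit used here in place of a test. Of 13318 genes with at least 1 FPKM in either group, 9.55% were higher by that much and 7.14% lower. RPL32P3 had the largest ratio of the 4, at 2.28-fold (log2 1.19). SNHG10 followed at 2.21-fold (log2 1.15) and SNHG1 at 1.89-fold (log2 0.92). DANCR had the smallest ratio, 1.71-fold (log2 0.77). All 4 ratios were above those of at least 92.8% of the measured genes, whose median was -0.06 on the log2 scale. In such bulk RNA more expressing cells and more RNA per cell cannot be told apart. With all groups rescaled to the same total FPKM, a total that those 24 rows weigh on, all 4 means were still higher in siPAP total, but SNHG1 (log2 0.47) and DANCR (log2 0.32) no longer passed 1.5-fold. The order of the ratios was not that of the levels, since SNHG10, the least abundant gene, had a larger ratio than SNHG1, the most abundant.

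In nuclear RNA all 4 genes had a higher mean in siPAP than in control cells by 1.5-fold or more, against 11.3% of 13636 measured genes, while 8.18% of genes were lower by as much. SNHG10 stood apart from the other 3 genes with 3.54-fold (log2 1.82), above the ratio of 97.5% of genes. DANCR was at 2.27-fold (log2 1.18), RPL32P3 at 2.25-fold (log2 1.17) and SNHG1 at 2.17-fold (log2 1.12). These 3 ratios differed little from each other although the level of SNHG1 was far above that of RPL32P3. All 4 ratios lay above those of at least 94.0% of measured genes.

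In the LALA comparison, which shares its control nuclear libraries with the siPAP nuclear comparison, all 4 genes were again higher by 1.5-fold or more, against 11.5% of 13880 measured genes, and 5.03% of genes were lower by as much. SNHG10 was at 3.09-fold (log2 1.63) and DANCR at 2.41-fold (log2 1.27). RPL32P3 was at 2.09-fold (log2 1.06). SNHG1 was at 1.68-fold (log2 0.75), the smallest ratio of the 4 and above that of 90.2% of genes. The median log2 ratio of all measured genes was -0.16, so that relative to the median gene each of the 4 ratios was larger by that amount. After rescaling to equal totals SNHG1 (log2 0.19) and RPL32P3 (log2 0.50) were still higher in LALA nuclear but no longer passed 1.5-fold.

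Set directly against each other, LALA nuclear and siPAP nuclear differed by less than 1.5-fold in all 4 genes. In this comparison 7.45% of 13967 measured genes were higher in LALA nuclear by that much and 5.28% lower. SNHG1 had the largest difference, with a LALA nuclear mean that was 0.777 of the siPAP nuclear mean. The ratio was 0.875 for SNHG10, 0.927 for RPL32P3, whose direction turned under a rescaling without the 24 largest rows, and 1.06 for DANCR.

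**Figure D3:**
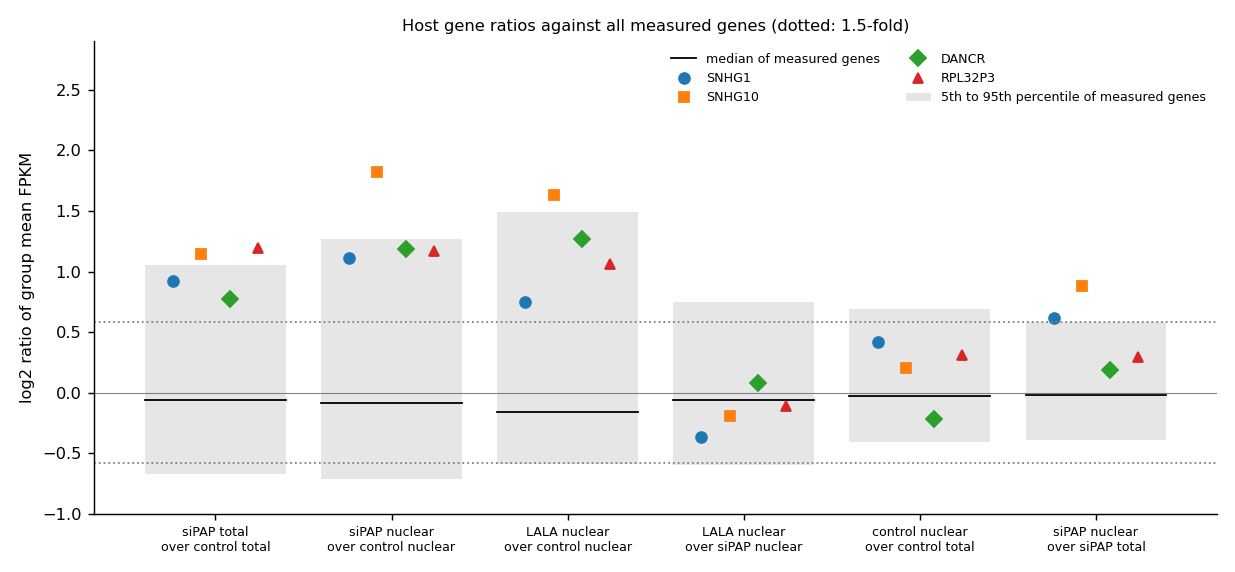
Log2 ratio of group mean FPKM (y axis) of the 4 host genes in 6 comparisons (x axis), with the first-named group on top of the ratio. Grey boxes run from the 5th to the 95th percentile of all measured genes, black lines are their medians and dotted lines mark 1.5-fold. In the 3 comparisons of treated with control cells all 4 points lie above the upper dotted line, between 0.75 and 1.82, and in LALA nuclear over siPAP nuclear they lie between -0.36 and 0.08.

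The nuclear groups were also set against the total groups. Among reference RNAs the log2 ratio of control nuclear over control total was 0.32 for MALAT1 and -0.27 for NEAT1, both nuclear lncRNAs. For the mRNAs it was -0.19 for ACTB, -0.39 for GAPDH and -0.52 for RPL30. NEAT1 thus lay below ACTB on this ratio, but above GAPDH and RPL30. The study states that MALAT1 lacks a poly(A) tail, and the libraries were selected for poly(A)+ RNA, so its values may not reflect its level. In control cells none of the 4 genes differed by 1.5-fold between nuclear and total RNA, a limit that 8.57% of 13001 measured genes passed as higher in control nuclear and 1.64% as lower. The log2 ratio of control nuclear over control total was 0.42 for SNHG1, 0.31 for RPL32P3, 0.20 for SNHG10 and -0.22 for DANCR, and rescaling to equal totals turned the last to 0.03 and took SNHG1 past the limit, at 0.67. In siPAP cells SNHG10 and SNHG1 were higher in nuclear than in total RNA by 1.5-fold or more, at 1.84-fold and 1.53-fold, against 4.86% of 13424 genes, and 1.4% of genes were lower. DANCR, at 1.14-fold, and RPL32P3, at 1.22-fold, were within the limit. SNHG1 lay just past the limit.

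The ratio of siPAP over control can therefore be set side by side for the 2 kinds of RNA. For SNHG10 the log2 ratio was 1.82 in nuclear and 1.15 in total RNA, a difference of 0.68 that was above that of 98.3% of 13163 genes measured in both. For DANCR the difference was 0.41 and for SNHG1 it was 0.20. For RPL32P3 the nuclear and total ratios were nearly equal, with a difference of -0.02 against a median of -0.02 over all genes. The libraries were selected for poly(A)+ RNA, and tail length was not measured in these files.

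**Figure D4:**
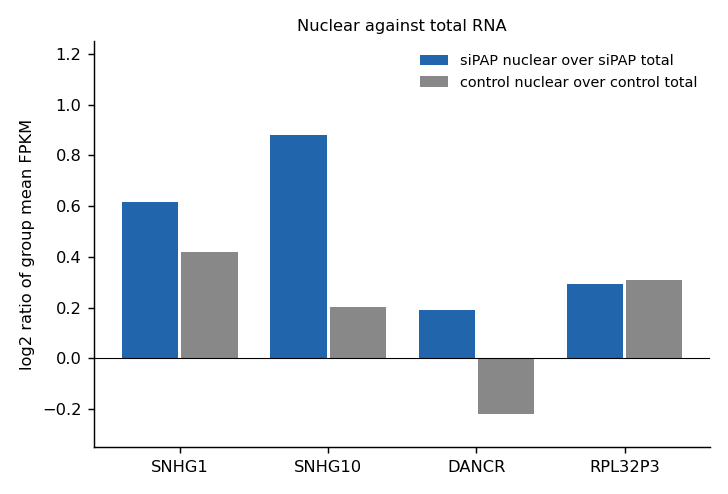
Log2 ratio of mean FPKM in nuclear over total RNA (y axis) for each host gene, in siPAP cells (blue) and control cells (grey). SNHG10 is at 0.88 in siPAP cells and 0.20 in control cells, whereas RPL32P3 is at 0.29 in siPAP cells and 0.31 in control cells, and DANCR is below 0 only in control cells.

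Named rows that overlap the host genes or lie nearest on each side were set beside them. Rows without a gene symbol were passed over, so the extent of a change along the chromosome was not tested. WDR74, at lower coordinates than SNHG1, is known for a role in ribosome assembly and had a log2 ratio over its control of -0.29 in total RNA of siPAP cells and -0.19 in both LALA nuclear and siPAP nuclear. SLC3A2, the amino acid transporter heavy chain whose locus begins 81 bases from that of SNHG1, had log2 ratios of 0.20 in total RNA of siPAP cells, 0.02 in siPAP nuclear and 0.11 in LALA nuclear. Neither neighbour of SNHG1 passed 1.5-fold in any of the 3 comparisons.

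GLRX5, a mitochondrial glutaredoxin gene, is transcribed from the strand opposite to SNHG10 and in GENCODE the genes overlap. Its log2 ratio was -0.34 in LALA nuclear, -0.08 in siPAP nuclear and -0.23 in siPAP total. The kit marks strand, but the methods do not say whether the counting used it. USP46 and ERVMER34-1, on either side of DANCR, lay between -0.18 and 0.03 in these comparisons. DANCR also overlaps, in GENCODE, a longer lncRNA on its own strand, LINC01618, whose reads could fall in the DANCR row.

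Next to RPL32P3, EFCAB12 was below 0.15 FPKM in every group. H1FX-AS1, an antisense RNA 41721 bases away on the other side, was the only named neighbour past 1.5-fold. It had 3.61 FPKM in siPAP total and 2.07 FPKM in control total. Its nuclear means were 3.52 FPKM in LALA cells, 4.48 FPKM in siPAP cells and 2.17 FPKM in control cells. SNORA7B, MIR4449, SNORD25 and SNORD26, small RNAs that have a row of their own inside a host locus, were listed at 0 in all 5 groups.

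The 4 genes were then set beside the other ncSNHGs for which the study had primers. Of 19 others, 13 had a row of their own in the table, SNHG8 and SNHG9 among them. The counts leave out hosts with no row under their own symbol, among them SNHG21 and SNHG19, which the study calls a decay target. The SCARNA15 row, whose locus holds SNHG21 in GENCODE, was higher by 1.5-fold or more in the siPAP and LALA comparisons. It had 36.2 FPKM in LALA nuclear, 37.5 FPKM in siPAP nuclear and 11.9 FPKM in control nuclear. In total RNA it had 26.0 FPKM in siPAP cells and 9.60 FPKM in control cells. None of the 13 was higher in siPAP total by 1.5-fold or more, where 9.55% of all genes were, and SNHG5 was lower, with 271 FPKM in siPAP total and 423 FPKM in control total. Their median log2 ratio was -0.23, against 1.03 for the 4 genes and -0.06 for all genes. In nuclear RNA 1 of the 13 was higher in siPAP cells, against 11.3% of all genes, and none lower, with a median of -0.08 against 1.18 for the 4 genes. In LALA nuclear 1 of the 13 was higher, against 11.5% of all genes, and none lower, with a median of -0.02 against 1.16. In a list of 13 such counts are near the background. With SNHG8 and SNHG9 counted beside the 4 genes, a choice made after their values were seen, 5 of 6 were past the limit in the LALA comparison and 4 of 6 in each of the siPAP comparisons. The study's text does not say how hosts were picked for unspliced primers. If they were picked by their response to the same treatments, this contrast was set in advance. The difference between the 4 genes and the other hosts was not tested.

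SNHG7 was the host past the limit in siPAP nuclear. Its row, which carries the H/ACA snoRNAs SNORA17 and SNORA43, was at 220.0 FPKM in siPAP nuclear and 71.8 FPKM in control nuclear. It was at 75.1 FPKM in LALA nuclear, and at 73.7 FPKM in siPAP total and 87.2 FPKM in control total. A single group stood above the other 4 there.

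SNHG8, the host of SNORA24, was the host past the limit in LALA nuclear, with 227 FPKM in LALA nuclear, 184 FPKM in siPAP nuclear and 140 FPKM in control nuclear. In total RNA it had 135 FPKM in siPAP cells and 97.4 FPKM in control cells. SNHG9 had 69.6 FPKM in siPAP total and 46.8 FPKM in control total, a ratio of 1.49 that was just under the limit. SNHG8, SNHG9 and EPB41L4A-AS1 had every treated mean above its control, as the 4 genes did, though not by 1.5-fold in each comparison. GAS5, the host of a series of box C/D snoRNAs like SNHG1, had log2 ratios of -0.16 in LALA nuclear, -0.11 in siPAP nuclear and -0.19 in siPAP total.

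**Figure D5:**
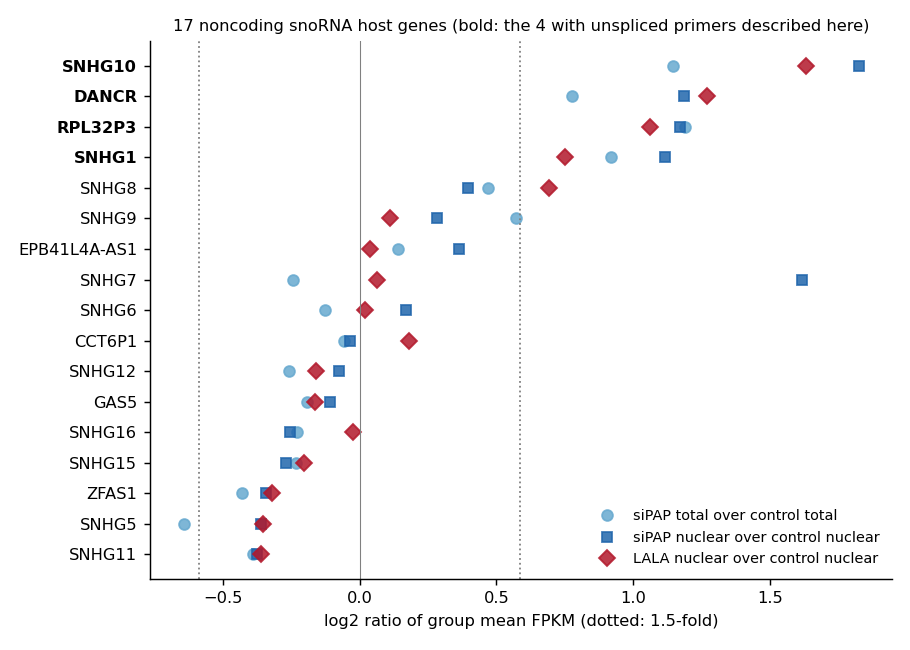
Log2 ratio of group mean FPKM (x axis) of 17 ncSNHG rows (y axis, sorted by the median of 3 comparisons) for siPAP total over control total, siPAP nuclear over control nuclear and LALA nuclear over control nuclear. Dotted lines mark 1.5-fold. The 4 genes named in bold have all 3 points to the right of the upper dotted line. SNHG7 has only its siPAP nuclear point there and SNHG8 only its LALA nuclear point.

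Genes whose products act with snoRNAs were listed beside the host genes, and the difference between them was not tested. Of all genes, 11.5% were higher by 1.5-fold or more in LALA nuclear, 11.3% in siPAP nuclear and 9.55% in siPAP total. In the same order, 5.03%, 8.18% and 7.14% were lower by as much. A count of 0 or 1 in lists this short is near the background. Of 8 rows of snoRNP core proteins, which hold the snoRNA and carry out the modification, none was higher by 1.5-fold in any of the 3 comparisons. GAR1, an H/ACA core protein whose row also carries RRH, was lower, at 31.0 FPKM in siPAP total and 47.9 FPKM in control total, and at 34.9 FPKM in siPAP nuclear and 54.6 FPKM in control nuclear. FBL, the methyltransferase of C/D snoRNPs, was at 199 FPKM in LALA nuclear, 229 FPKM in siPAP nuclear and 264 FPKM in control nuclear. The list had a median log2 ratio of -0.39 in LALA nuclear, -0.23 in siPAP nuclear and -0.14 in siPAP total, against -0.16, -0.09 and -0.06 over all measured genes.

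Of 15 assembly and scaRNA factors none was higher by 1.5-fold or more in the 3 comparisons. PIH1D1, a subunit of the R2TP assembly complex, was at 23.1 FPKM in siPAP total and 35.9 FPKM in control total. NUFIP1, which bridges that machinery to the C/D core, was at 11.9 FPKM in siPAP nuclear and 18.1 FPKM in control nuclear. These were the list's only genes past the limit, each in the comparison named. Of all genes, 7.14% were lower by as much in siPAP total and 8.18% in siPAP nuclear. PIH1D1 was just under the limit elsewhere, with log2 ratios of -0.56 in siPAP nuclear and -0.57 in LALA nuclear.

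Over all genes in the 3 comparisons, 9.55% to 11.5% were higher by 1.5-fold or more and 5.03% to 8.18% were lower. Counts of 0 or 1 in the short lists that follow are near those shares. Among 6 factors of nuclear decay only ZFC3H1, a zinc finger protein that links PABPN1 to the exosome, was past 1.5-fold. It was at 44.9 FPKM in siPAP total and 24.6 FPKM in control total. In nuclear RNA it was at 41.5 FPKM in LALA cells, 49.9 FPKM in siPAP cells and 25.3 FPKM in control cells. EXOSC10, the nuclear exosome nuclease, was at 41.2 FPKM in siPAP total and 41.1 FPKM in control total. None of 7 genes of nonsense-mediated decay, the cytoplasmic pathway known to degrade many spliced host RNAs, was past the limit in the 3 comparisons, and their log2 ratios lay between -0.30 and 0.31. UPF1, its central helicase, had log2 ratios of -0.30 in LALA nuclear and 0.04 in both siPAP nuclear and siPAP total.

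Among reference RNAs the study describes the nuclear lncRNA NEAT1 as a known target of the nuclear decay it examined. NEAT1 was at 166 FPKM in siPAP total and 65.7 FPKM in control total. In nuclear RNA it was at 172 FPKM in LALA cells, 150 FPKM in siPAP cells and 54.7 FPKM in control cells. MALAT1, another nuclear lncRNA, was past the limit in LALA nuclear, with 52.4 FPKM against 25.4 FPKM in control nuclear. In siPAP nuclear it was within the limit, at 27.9 FPKM. According to the study MALAT1 has no poly(A) tail, so these values from poly(A)+ libraries may not reflect its level. ACTB, GAPDH and RPL30 had log2 ratios between -0.52 and 0.03 in the 3 comparisons.

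The profile over the 5 group means, on the log2 scale and centred on each gene's own mean, was compared with 11216 named genes at or above 1 FPKM in every group (11215 for SNHG10 and RPL32P3). Distances are Euclidean, in log2 units, over 5 means that share libraries. Among the host genes themselves SNHG1 and RPL32P3 were nearest, 0.33 apart, and SNHG10 and DANCR were farthest, 0.82 apart. The nearest other rows to DANCR were LOC344595, 0.09 away, then UNQ6975 and ZNF496, both 0.16 away. Those nearest to RPL32P3 were FLJ39051 (0.12), TP53I3 (0.14) and ASH1L-AS1 (0.15). Those nearest to SNHG1 were MIRLET7D and FGFBP3, both 0.15 away, and SEC24C (0.16). SNHG10 had the most isolated profile of the 4, with MIB2 at 0.19, SCARNA15 at 0.27 and AGBL3 at 0.28.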

How the data were processed

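Poly(A)+ RNA of HEK293 cells was sequenced as stranded, paired-end mRNA libraries. According to the submitters' processing notes and the study's methods, reads were mapped to hg19 with TopHat2, assembled with Cufflinks and summarised with Cuffdiff. The deposited FPKM values are the authors' group means over 2 libraries, for 30809 assembled genes and 10 pairs of groups. The authors' own comparison columns (log2 fold changes, test statistics, p-values, q-values and calls) were not used. Because no library has a value of its own, no test, SD or interval could be computed, and reads per library are not given in the sources used here.

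Log2 ratios of group means were computed without a pseudocount (Python 3.11.15, pandas 2.3.3, numpy 2.4.6) for genes that reached 1 FPKM in a group of the comparison and were not at 0 in the other, and counted at 1.5-fold. Pseudocounts of 0.1 and 1, filters of 0 and 5 FPKM, a fold of 2, other scalings and named loci alone were tried. Functions were tested on simulated data. Primer sequences came from the study's primer list and were placed on GRCh37 (hg19) and GENCODE v44lift37 with pysam 0.24.0. Named genes were the 4 hosts, their neighbours, their 3 nearest profiles and listed genes past the fold or used as references. Also named were the cell type markers and, though within the fold, FBL, EXOSC10, UPF1, GAS5, SNHG9 and EPB41L4A-AS1. RPL32 and SNHG21, and in the closing section SNORD57 and SNORD68, were added after their values were seen. SNHG3, SNHG4, SNHG19 and SNHG20 have no row under their own symbol and were named from the study. The 4 genes and the lists were chosen with earlier results of these data known.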

Additional observations from a re-analysis of the deposited data

How the results depend on the processing

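No paired analysis was possible because the table holds only the mean of each group; for the same reason no library could be left out. In all 120 alternatives the unlogged ratio of a gene stayed within 1.5-fold of the reported ratio, though ratios near 1 could turn, as for DANCR in control nuclear over control total (log2 0.03 after rescaling to equal totals, against -0.22 as reported). A rescaling moves every gene of a comparison by the same factor. The number of the 4 genes past the limit stayed within 1.5 times in 43 of 48 alternatives. With every group rescaled to the same total FPKM, a total that 24 rows above 10000 FPKM weigh on, it was 2 of 4 in siPAP total over control total (SNHG1 log2 0.47, DANCR log2 0.32), 2 of 4 in LALA nuclear over control nuclear (SNHG1 log2 0.19, RPL32P3 log2 0.50) and 1 of 4 in control nuclear over control total, where it was 0. With a fold of 2 it was 2 of 4 in siPAP total over control total, 3 of 4 in LALA nuclear over control nuclear, and 0 rather than 2 in siPAP nuclear over siPAP total. When rows above 10000 FPKM were left out before rescaling, an alternative chosen after seeing the data, these counts did not move, while RPL32P3 in LALA nuclear over siPAP nuclear went to a log2 ratio of 0.08, against -0.11 as reported.

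Counts over all genes moved by more than 1.5 times in 65 of 108 alternatives, as a change of filter, fold or scale makes them. Of genes past 1.5-fold in LALA nuclear over control nuclear, 69.6% were higher as reported, 88.3% after centring on the median and 8.40% after rescaling to equal totals. In siPAP nuclear over control nuclear these shares were 58.0%, 68.6% and 9.74%, and in siPAP total over control total 57.2%, 65.5% and 9.80%. Rescaling to equal totals set the median log2 ratio of all genes at -0.73 in the LALA comparison, -0.61 in siPAP nuclear and -0.52 in siPAP total.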

Other observations

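Inside the SNHG1 locus, SNORD27 has a row of its own that was listed at 20859 FPKM in LALA nuclear and 32125 FPKM in control total, and at 0 in the other 3 groups. In control total exactly 1 other row, SNORD57, held the same value to the last deposited digit, and in LALA nuclear exactly 1 other row, SNORD68, did. The SNHG1 row itself carries 5 other SNORD names, and the part of small RNA fragments in its mean was not tested.

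SCARNA15, the second nearest profile to SNHG10, had 36.2 FPKM in LALA nuclear, 37.5 FPKM in siPAP nuclear, 11.9 FPKM in control nuclear, 26.0 FPKM in siPAP total and 9.60 FPKM in control total. RefSeq lists SCARNA15HG as a synonym of SNHG21, an ncSNHG for which the study also had unspliced primers, and GENCODE places SNHG21 within the SCARNA15 row's locus. SNHG10 is a scaRNA host as well. The 4 host genes were chosen by symbol, and this row was not among them.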
